A study of Arabidopsis thaliana with 6 samples.

Results

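The genes *LHCB1.1* to *LHCB1.5*, *LHCB2.1* to *LHCB2.3* and *LHCB3* encode the proteins of the trimeric light-harvesting complex of photosystem II (LHCII) in *Arabidopsis thaliana*. They were followed here at every array probe whose transcript accession maps to 1 of these 9 loci, which gave 35 probes, all of them kept, among 30435 kept probes for 22682 genes. *LHCB1.3* had 9 probes, *LHCB1.4*, *LHCB1.5*, *LHCB2.2* and *LHCB3* had 4 each, *LHCB1.1* and *LHCB1.2* had 3 each, and *LHCB2.1* and *LHCB2.3* had 2 each. The seedlings were *pgp1-2*, a mutant of *PGP1*, the gene for a phosphatidylglycerophosphate synthase on the path to the membrane lipid phosphatidylglycerol, and the wild type (WT), both of the Columbia-0 ecotype. Each group had 3 one-colour Agilent arrays, 1 per sample of whole seedlings. Both groups grew in continuous light on agar with 3% sucrose. The light was 30 µmol photons m-2 s-1 at first, for 14 d in *pgp1-2* and 7 d in the WT, and was lowered to 15 µmol photons m-2 s-1 for the last 7 d of either group. At harvest *pgp1-2* seedlings were 21 d old and WT seedlings 14 d old. Genotype and age cannot be told apart in any difference below. The labels do not say whether the samples of a group came from separate cultures, and p-values measure the spread between these samples.

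LHCII binds chlorophyll a, chlorophyll b and carotenoids in the thylakoid membrane and passes the absorbed energy to photosystem II. Its trimers are built from LHCB1, LHCB2 and LHCB3, and phosphatidylglycerol is a structural part of the trimer. LHCB1 and LHCB2 are phosphorylated when antenna is shared between the photosystems, while LHCB3 lacks the phosphorylation site. The genes are nuclear, are classical light-induced genes under their older name *CAB*, and are classical targets of signals from the plastid to the nucleus. In whole seedlings, fewer green cells and less of a transcript per cell cannot be told apart.

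Signals are given as log2 of the processed signal minus the array's 75th percentile, and differences are *pgp1-2* minus WT. The *PGP1* probe was not well above background on any of the 3 *pgp1-2* arrays. It measured 0.78, 0.93 and 0.73 on the WT arrays. It was at least 226-fold lower in *pgp1-2* when set against the lowest signal well above background on each mutant array. The limma adjusted p of 8.17e-05 is from the mutant signals as measured, without that bound. Per array, 68.6% to 79.3% of probes were well above background. Across all kept probes, 15300 (50.3%) were called by limma at a Benjamini-Hochberg adjusted p under 0.05, 7865 of them higher (25.8%) and 7435 lower (24.4%) in *pgp1-2*.

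Every LHCII probe had a lower signal in *pgp1-2*. All 35 probes were called lower by limma, where the share for all probes was 24.4%, and the adjusted p lay between 0.00032 and 0.00677. The mutant and WT values did not overlap at any of the 35, where 29.7% of all probes were lower without overlap. The differences ran from -0.71 to -4.20, or from 1.64-fold to 18.3-fold lower, with a median of -1.78. A fall of 1 or more on the log2 scale was reached by 31 of the 35 probes, against 8.02% of all probes, and a fall of 2 or more by 16, against 1.9%. Per gene, the mean over its probes was lower by 1.24 to 3.98, with a median of -1.79 over the 9 genes, beside 0.031 over all genes. By its brightest probe each of the 9 genes was called lower. With the arrays scaled to the spike-in probes all 35 probes were still lower in *pgp1-2*. In that fit 24 of the 35 probes were called, where 17.3% of all probes were, and 4 of the 9 genes. Limma gave every LHCII probe the same standard error of 0.39 there. The genes whose brightest probe lost its call were *LHCB1.1*, *LHCB1.2*, *LHCB1.3*, *LHCB1.5* and *LHCB2.2*.

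**Figure D1:**
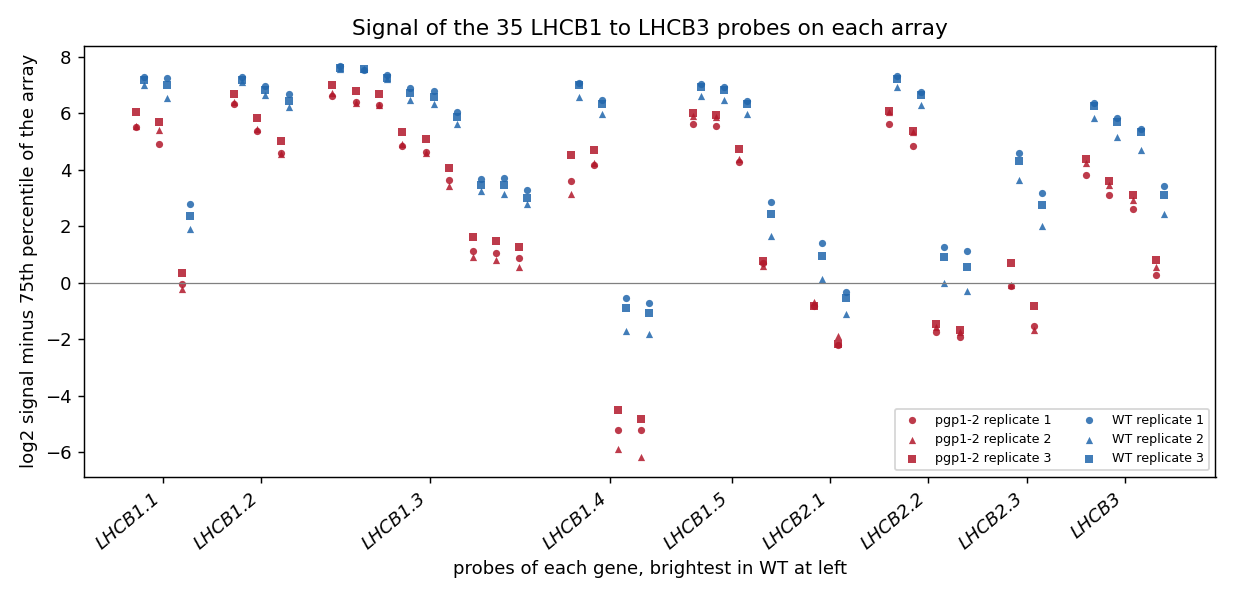
Log2 signal minus the array's 75th percentile for each of the 35 probes (x axis, grouped by gene, brightest in WT at left), with 3 *pgp1-2* arrays in red, left of 3 WT arrays in blue. No mutant point reaches a WT point of the same probe, and the smallest gap between the groups is 0.43 on the log2 scale.

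The 5 *LHCB1* genes encode the most abundant LHCII protein. *LHCB1.1* (AT1G29920), *LHCB1.2* (AT1G29910) and *LHCB1.3* (AT1G29930) lie next to one another on chromosome 1 and are known as *CAB2*, *CAB3* and *CAB1* in the RefSeq table. The brightest *LHCB1.1* probe had signals of 5.53, 5.55 and 6.06 on the *pgp1-2* arrays, against 7.27, 7.01 and 7.17 on the WT arrays. It averaged 5.71 ± 0.30 in *pgp1-2* and 7.15 ± 0.13 in the WT (SD, n = 3 each), a log2 difference of -1.44 ± 0.16 (SE; limma adjusted p = 0.000924). Under quantile normalization it was -0.78. The other *LHCB1.1* probes differed by -1.59 and -2.33, so the dimmest of the 3 showed the largest fall.

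*LHCB1.2* had the smallest fall of any probe, at its brightest one. Probe A_84_P806540 had 6.34, 6.40 and 6.67 in *pgp1-2* and 7.27, 7.10 and 7.16 in the WT, a log2 difference of -0.71 ± 0.11 (SE; limma adjusted p = 0.00264). The highest mutant value lay 0.43 below the lowest WT value, so the groups did not overlap. The call ended under quantile normalization (-0.11, limma adjusted p = 0.224) and with spike-in scaling (-0.28, limma adjusted p = 0.617, or 0.169 with slide as a block). Its other probes differed by -1.27 and -1.72. Averaged over its 3 probes, *LHCB1.2* was 2.35-fold lower, the smallest mean fall of the 9 genes.

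*LHCB1.3* carried the most probes, and they spread over a wide range of signal. The brightest, A_84_P856362, had 6.62, 6.72 and 6.98 in *pgp1-2* against 7.69, 7.56 and 7.60 in the WT, a log2 difference of -0.84 (limma adjusted p = 0.00141). Under quantile normalization it was -0.42. The probe A_84_P806496, far dimmer, had 1.05, 0.82 and 1.48 in *pgp1-2* against 3.69, 3.16 and 3.46 in the WT, a difference of -2.32 (limma adjusted p = 0.000433). Within this gene the fall thus ranged from 1.79-fold to 5.0-fold, depending on the probe. Across its 9 probes the difference rose towards 0 with WT signal (Spearman rho 0.88, Pearson r 0.86). These probes share a gene and the same 6 arrays, and the correlation is a description.

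*LHCB1.4* (AT2G34430) and *LHCB1.5* (AT2G34420) are neighbours on chromosome 2. The brightest *LHCB1.4* probe, A_84_P160283, had 3.59, 3.14 and 4.51 in *pgp1-2*, against 7.08, 6.59 and 7.01 in the WT. Its means were 3.75 ± 0.70 and 6.89 ± 0.26 in the mutant and the WT (SD, n = 3 each), a log2 difference of -3.14 ± 0.35 (SE; limma adjusted p = 0.000878), or 8.84-fold lower. The mutant arrays were more spread than the WT arrays, and replicate 3 was the highest of them.

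A pair of dim *LHCB1.4* probes had the largest falls of all 35, though under normexp, without *pgp1-2* replicate 2 and within slide 1 the *LHCB2.3* probe A_84_P24021 had the largest (-3.91, -3.87 and -4.69). The probe A_84_P800855 had -5.21, -5.89 and -4.52 in *pgp1-2* and -0.52, -1.70 and -0.90 in the WT, a difference of -4.17 (limma adjusted p = 0.000665). At A_84_P807037 the difference was -4.20, 18.3-fold lower, and 2 of the 3 mutant arrays were well above background, so the mutant level there is close to the limit of measurement. Under normexp the differences at these probes were -3.51 and -3.39. The scanner software's own error on these probes reached 19.2% and 26.7% of the signal, where it stayed near 10% at the others.

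The fourth *LHCB1.4* probe did not follow the other 3. A_84_P857496 had 4.16, 4.24 and 4.69 in *pgp1-2* and 6.45, 5.98 and 6.34 in the WT, a difference of -1.89 (limma adjusted p = 0.000568). The *LHCB1.5* probe A_84_P807036 had 4.26, 4.39 and 4.73 in *pgp1-2* and 6.44, 5.96 and 6.32 in the WT, a difference of -1.78. The signals of these probes lay within 0.16 of each other on every array, and after each was centred on its mean over the arrays their root mean square distance was 0.067. The distance of A_84_P857496 to the brightest *LHCB1.4* probe was 0.68. Whether this probe reads *LHCB1.5* transcript was not tested, since probe sequences were not analysed here.

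The remaining *LHCB1.5* probes included 2 bright ones that gave the same pattern to within a distance of 0.0245. A_84_P207958 had 5.61, 5.91 and 5.99 in *pgp1-2* and 7.03, 6.59 and 6.92 in the WT, a log2 difference of -1.01, and A_84_P862752 differed by -0.97. Under quantile normalization these were -0.35 and -0.30, and the second was not called (limma adjusted p = 0.0847). The dimmest *LHCB1.5* probe differed by -1.63. Over its probes *LHCB1.5* was 2.54-fold lower, where *LHCB1.4* was 10.2-fold lower.

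LHCB2 is the LHCII protein whose phosphorylated form is most closely tied to state transitions. *LHCB2.1* (AT2G05100) and *LHCB2.2* (AT2G05070) lie side by side on chromosome 2, and *LHCB2.3* (AT3G27690) lies alone on chromosome 3. The brighter *LHCB2.1* probe had -0.82, -0.67 and -0.84 in *pgp1-2* against 1.41, 0.12 and 0.93 in the WT, a difference of -1.60 ± 0.31 (SE; limma adjusted p = 0.00677). The mutant arrays agreed closely (SD 0.091) and the WT arrays did not (SD 0.65), with WT replicate 2 the lowest. The other *LHCB2.1* probe differed by -1.42.

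*LHCB2.2* gave 2 kinds of probe. The bright A_84_P803298 had 5.62, 6.03 and 6.06 in *pgp1-2* and 7.33, 6.93 and 7.20 in the WT, a log2 difference of -1.25 (limma adjusted p = 0.00132), and the next brightest differed by -1.37. Under quantile normalization these were -0.59 and -0.74. The dim A_84_P808711 had -1.75, -1.56 and -1.44 in *pgp1-2* and 1.28, 0.000428 and 0.90 in the WT, a difference of -2.31 (limma adjusted p = 0.00183), and A_84_P288490 differed by -2.25. The falls were thus larger at both dim probes than at the bright ones of the same gene.

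*LHCB2.3* fell by nearly the same amount at both of its probes. A_84_P24021 had -0.11, -0.072 and 0.72 in *pgp1-2* and 4.58, 3.64 and 4.3 in the WT. A_84_P808706 had -1.52, -1.66 and -0.83 in *pgp1-2* and 3.17, 2.00 and 2.74 in the WT. The log2 differences were -3.99 and -3.97, 15.9-fold and 15.7-fold lower (limma adjusted p = 0.00032 and 0.000408). The highest mutant array lay 2.92 and 2.83 log2 units below the lowest WT array at these probes.

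*LHCB3* (AT5G54270, chromosome 5) is the only gene for its protein. Its brightest probe, A_84_P15956, had 3.81, 4.22 and 4.39 in *pgp1-2* and 6.37, 5.83 and 6.25 in the WT. The means were 4.14 ± 0.30 and 6.15 ± 0.28 in the mutant and the WT (SD, n = 3 each), a log2 difference of -2.01 ± 0.20 (SE; limma adjusted p = 0.0006), or 4.02-fold lower. The other *LHCB3* probes differed by -2.17, -2.28 and -2.45, in the order of their falling WT signal. With 4 probes between 4.02-fold and 5.45-fold lower, *LHCB3* varied less among its probes than the other genes with 4 or more.

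**Figure D2:**
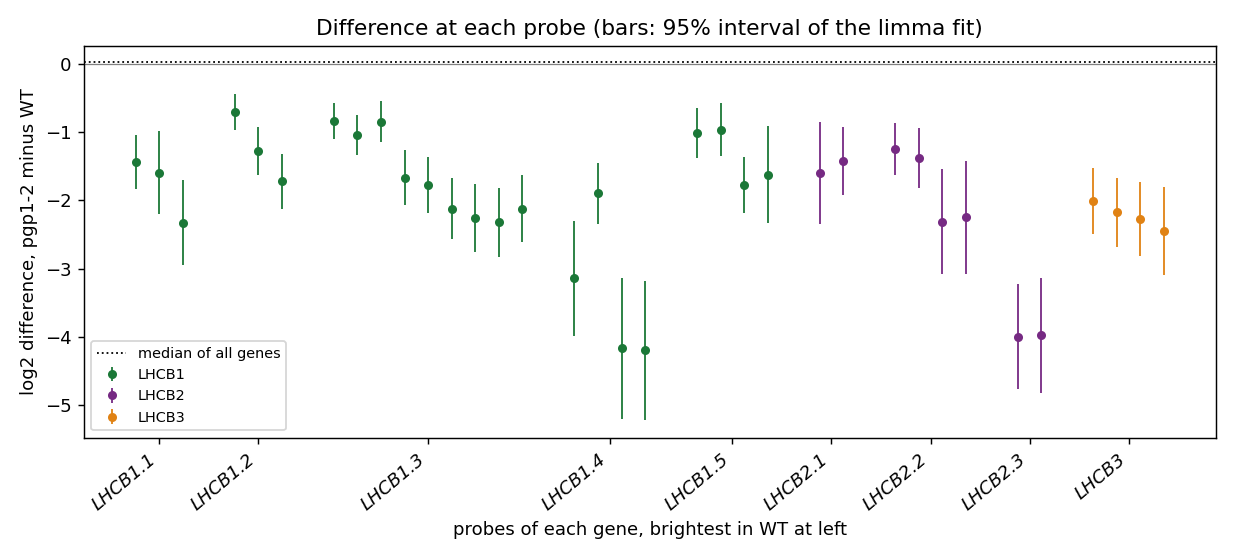
Log2 difference (y axis, *pgp1-2* minus WT) at each probe, grouped by gene with the brightest probe at left, with the 95% interval of the limma fit and a dotted line at the median of all genes. No interval reaches 0, and *LHCB2.3* and 3 of the 4 *LHCB1.4* probes lie below -3.

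The size of the fall followed the brightness of the probe. Over all 35 probes the difference correlated with the WT signal at a Spearman rho of 0.71 and a Pearson r of 0.60. Without the probes of *LHCB1.4* and *LHCB2.3* the values were 0.74 and 0.57 over 29 probes. Of those 29, the 16 with a WT signal of 6 or more had a median difference of -1.32, and the 13 dimmer ones a median difference of -2.25. Probes share arrays and in part transcripts, so these figures describe the 35 probes and carry no p-value.

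In 7 of the 9 genes the brightest probe fell less than the dimmest, the exceptions being *LHCB2.1* and *LHCB2.3*. The same held at 69.4% of 1158 other genes with several kept probes that were all called lower, and at 93.1% of the 58 such genes whose brightest probe had a mean signal of 5 or more. The median gap between brightest and dimmest probe was 0.042 over the 1158 genes and 0.32 over the 58. No LHCII spot was flagged as saturated, and the highest raw median intensity of an LHCII probe on an array was 75.2% of the saturation value in the file headers. The part of probe brightness in the smaller falls was not tested further. With the brightest probe of each gene the median over the 9 genes was -1.44, and with the dimmest it was -2.25.

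**Figure D3:**
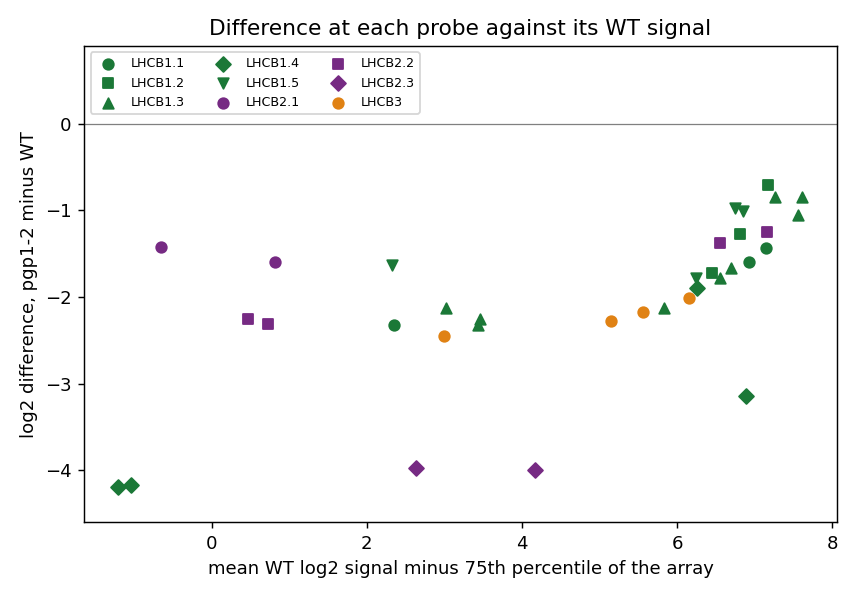
Log2 difference (y axis, *pgp1-2* minus WT) against mean WT log2 signal (x axis) for the 35 probes, with colour for LHCB1, LHCB2 and LHCB3 and a symbol per gene. Among bright probes the difference comes closer to 0 as signal rises, while *LHCB2.3* and 3 of the 4 *LHCB1.4* probes lie well below the others at their signal.

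Whether members fell by unequal amounts was examined within arrays, by subtracting the log2 signal of the brightest *LHCB3* probe from every probe of the same array, which removes the scaling between arrays. In that fit limma's moderation gave every probe the same standard error of 0.31, and 14 of the 31 LHCB1 and LHCB2 probes were called different from *LHCB3*, against 96.2% of all probes. Of the 14, 9 were above *LHCB3*, where 95.3% of all probes were, and 5 below it, where 0.858% were. A test with each probe's own residual variance, added after this was seen, called 18 of the 31, 13 above *LHCB3* and 5 below it, and its intervals are used below. In it 93.4% of all probes were called, 92.9% as falling less than *LHCB3* or rising and 0.552% as falling more.

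The 3 other *LHCB3* probes were themselves called lower than the brightest *LHCB3* probe, by 0.17, 0.27 and 0.44 on the log2 scale, with adjusted p-values of 0.0365, 0.0280 and 0.0318 in the test added later, and were not called by limma with moderation (adjusted p = 0.595, 0.389 and 0.163). The differences of probes of one gene spanned 0.44 at *LHCB3*, 1.06 at *LHCB2.2*, 1.48 at *LHCB1.3* and 2.3 at *LHCB1.4*.

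*LHCB2.3* and 3 of the *LHCB1.4* probes fell further than the brightest *LHCB3* probe. The extra fall at the *LHCB2.3* probes was -1.99 (95% interval -2.59 to -1.39) and -1.96 (-2.73 to -1.20). *LHCB2.3* was known from earlier results on these arrays to have fallen far, and its extra fall is a description. At the dim *LHCB1.4* probes the extra fall was -2.16 (-3.35 to -0.97) and -2.19 (-3.47 to -0.90), and at the bright one it was -1.14 (-2.13 to -0.14), a gap smaller than the span of the *LHCB1.3* probes. The fourth *LHCB1.4* probe, A_84_P857496, stood at 0.11 (-0.19 to 0.41) and was not called. Relative to *LHCB3* on the same array, the bright *LHCB1.4* probe stood at -0.22, -1.08 and 0.12 in *pgp1-2* and at 0.71, 0.75 and 0.76 in the WT. These 5 probes were the only LHCII probes called below *LHCB3*, apart from those of *LHCB3* itself, and limma with moderation called the same 5 under normexp, under array-median and spike-in scaling, with either block and when any 1 array was left out. Under quantile normalization it called 10 below *LHCB3*. With the filter on all 6 arrays it called 4, since A_84_P807037 was then not tested.

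The 13 probes that fell less than *LHCB3* were bright probes of *LHCB1.1*, *LHCB1.2*, *LHCB1.3*, *LHCB1.5* and *LHCB2.2* and 1 dim probe of *LHCB2.1*, A_84_P808697, at 0.59 (0.066 to 1.1). The largest such gap, at the brightest *LHCB1.2* probe, was 1.3 (0.86 to 1.74). Limma with moderation called 9 of these 13, all but the *LHCB2.1* probe, both *LHCB1.1* probes and A_84_P806475 of *LHCB1.3*. The 13 made up 10 of the 23 LHCB1 probes and 3 of the 8 LHCB2 probes. At the 13 probes not called, 10 of LHCB1 and 3 of LHCB2, the 95% interval of the gap to *LHCB3* held 0. Dim probes of the same genes, such as A_84_P806496 of *LHCB1.3* at -0.31 (-0.87 to 0.24) and A_84_P808711 of *LHCB2.2* at -0.30 (-0.95 to 0.35), were not called either way, and differences of the size of these intervals could not be seen with 3 arrays per group.

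**Figure D4:**
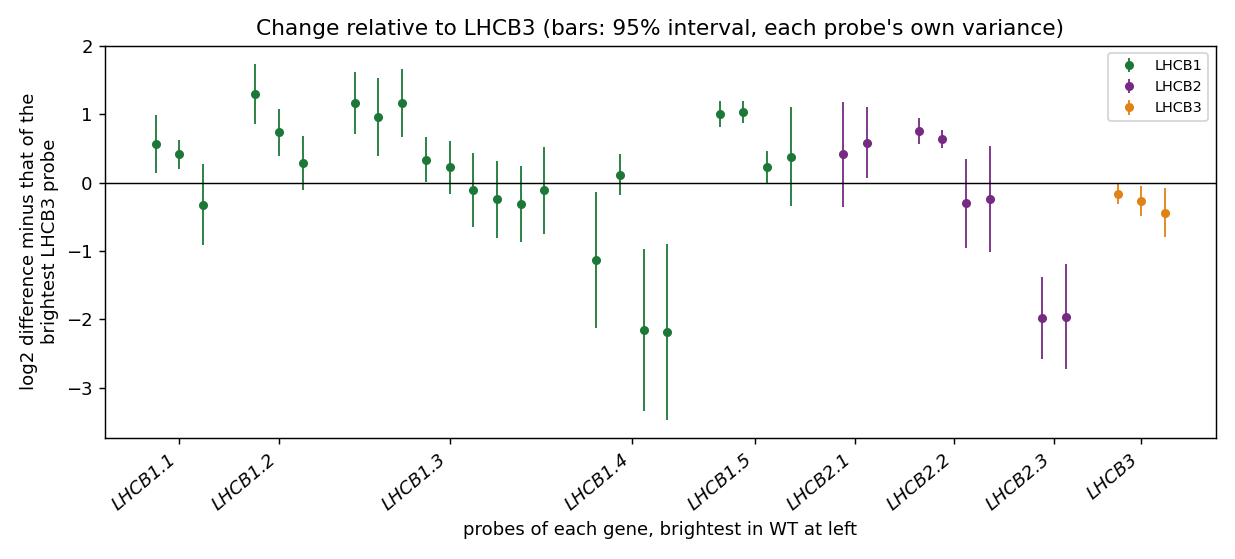
Log2 difference at each probe minus that of the brightest *LHCB3* probe, with 95% intervals from the probe's own variance over 3 arrays per group. Points above 0 fell less than *LHCB3*. Those of *LHCB2.3* and 3 of the 4 *LHCB1.4* probes lie between -1.14 and -2.19, below the *LHCB3* probes.

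Copies of LHCB1 and LHCB2 share much of their coding sequence, and a probe may read several of them. By centred profile over the 6 arrays, the nearest of the other 34 LHCII probes belonged to the same gene for 21 probes and to the same subfamily for 33. The *LHCB1.2* probe A_84_P806550 and the *LHCB1.3* probe A_84_P806587, for example, were 0.033 apart and gave differences of -1.72 and -1.78. No probe of *LHCB1.1*, *LHCB1.2* or *LHCB2.1* had its nearest probe in its own gene, against 7 of 9 for *LHCB1.3*, 2 of 4 for *LHCB1.4* and *LHCB1.5*, and every probe of *LHCB2.2*, *LHCB2.3* and *LHCB3*. Copies that vary together also have near profiles, and a gene with more probes offers more candidates of its own. These distances therefore cannot show which probes read a single copy. Cross-reading was not tested for any gene, and the values of all *LHCB1* and *LHCB2* members as single genes are uncertain.

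The WT arrays kept nearly the same order at all LHCII probes. WT replicate 1 was the highest WT array at 34 of the 35 probes and WT replicate 2 the lowest at 34. Of the mutant arrays, replicate 3 was the highest at 33, while replicate 1 was the lowest at 20 and replicate 2 at 14. Mutant and WT replicate 1 were hybridised on slide 1 and the other 4 arrays on slide 2. The median difference over the 9 genes was -2.30 on slide 1, with 1 array per group, and -1.53 on slide 2, with 2 per group, and every probe was lower in *pgp1-2* on each slide.

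The other antenna genes moved with the trimeric ones. Of the 6 minor or rare photosystem II antenna genes, which encode proteins that link LHCII to the core and the little-studied LHCB7, all 6 were called lower by their brightest probe, where 24.3% of all genes were, with a median difference of -1.75 over gene means. Over gene means *LHCB4.2* fell the most, at -2.40, and *LHCB7* the least, at -0.54. All 6 photosystem I antenna genes were called lower too, with a median of -1.81 over gene means and a range from -2.20 (*LHCA2*) to -1.22 (*LHCA5*). With spike-in scaling 3 of the 6 minor and 4 of the 6 photosystem I antenna genes were called lower, where 17.3% of all probes were called either way. With slide also a block 5 and 6 were called lower, where 58.5% of all probes were called. The 3 medians were close to one another, and no test of their difference was made. *LHCB1.4* and *LHCB2.3*, at -3.35 and -3.98, had larger mean falls than any of these 12 genes. The 4 *LHCB1.4* probes ranged from -4.20, where the mutant level was close to the limit of measurement, to -1.89, with the brightest at -3.14. The probe at -1.89 fell less than *LHCB4.2* did over its gene mean.

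Genes that serve LHCII had medians closer to 0, and no test of that difference was made. All 5 genes for its delivery to the thylakoid were called lower, where 24.3% of all genes were, with a median of -0.66. With spike-in scaling limma called 0 of the 5, where 17.3% of all probes were called either way. An unadjusted p under 0.05 was reached by 0 of the 5, and the median was -0.23. With slide also a block limma called 1, *CPSRP43*, where 58.5% of all probes were called. *CPSRP43*, for the chloroplast signal recognition particle subunit that escorts LHC proteins, had 3.50, 3.36 and 3.63 in *pgp1-2* and 4.69, 4.41 and 4.34 in the WT, a difference of -0.98 (limma adjusted p = 0.00119). *CPFTSY*, for the particle's receptor, fell the least, by 0.43, and stood at 0.00055 relative to the spike-in probes. Of 4 genes for chlorophyll b synthesis and breakdown, 3 were called lower, where 24.3% of all genes were. However, limma called 0 with spike-in scaling (1 at an unadjusted p under 0.05, median -0.35), against 17.3% of all probes. With slide also a block it called 2, against 58.5% of all probes. *CAO*, for the oxygenase that makes chlorophyll b, had 1.06, 1.1 and 1.45 in *pgp1-2* and 2.76, 2.17 and 2.36 in the WT, a difference of -1.23 (limma adjusted p = 0.00244). *NOL*, for a chlorophyll b reductase subunit, fell the least of those called, at -0.69. *NYC1*, for the other chlorophyll b reductase, differed by -0.23 and was not called (limma adjusted p = 0.192).

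Among 5 genes for the phosphorylation of LHCII and the photosystem II core, 4 were called lower, where 24.3% of all genes were. However, limma called 0 with spike-in scaling (1 at an unadjusted p under 0.05, median -0.21), against 17.3% of all probes. With slide also a block it called 2, against 58.5% of all probes. *TSP9*, for a small thylakoid phosphoprotein, fell the most, at -1.34, and *PBCP*, for a phosphatase of the photosystem II core, the least of those called, at -0.62. *STN7*, for the LHCII kinase, differed by -0.64, and *TAP38*, for the phosphatase that opposes it, by -1.16. *STN8*, for the kinase of the photosystem II core, differed by -0.14 and was not called (limma adjusted p = 0.302). Of 5 genes for the quenching of excess light, 4 were called lower, where 24.3% of all genes were. *PSBS*, for the sensor of lumen acidity, stood at -2.04 and *VDE*, for violaxanthin de-epoxidase, at -0.56. *ZEP*, for zeaxanthin epoxidase, was not called at -0.38 (limma adjusted p = 0.0831), though called without WT replicate 2 (-0.50, limma adjusted p = 0.0407). With spike-in scaling *PSBS* alone of the 5 was called (median -0.46), against 17.3% of all probes. With slide also a block limma called 2, against 58.5% of all probes.

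Of 7 regulators of *LHCB* genes, 2 were called lower, where 24.3% of all genes were, and 3 higher. With 7 genes these counts are a description. *GLK1* and *GLK2*, for transcription factors that activate antenna genes, were called lower, with differences of -3.43 and -2.12. *GLK1* had -2.30, -2.11 and -1.83 in *pgp1-2* and 1.54, 1.25 and 1.25 in the WT. *HY5*, for a light-signalling factor, *PIF1*, for a factor that restrains greening in the dark, and *CCA1*, for a clock factor that binds *LHCB* promoters, were called higher, by 0.78, 0.62 and 0.85, where 27.4% of all genes were. *PIF3* (-0.19) and *GUN1* (0.087), for a plastid protein of retrograde signalling, were not called (limma adjusted p = 0.253 and 0.512), though *GUN1* was called higher with spike-in scaling and slide as a block (0.52). The 5 regulators called kept their calls with spike-in scaling.

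**Figure D5:**
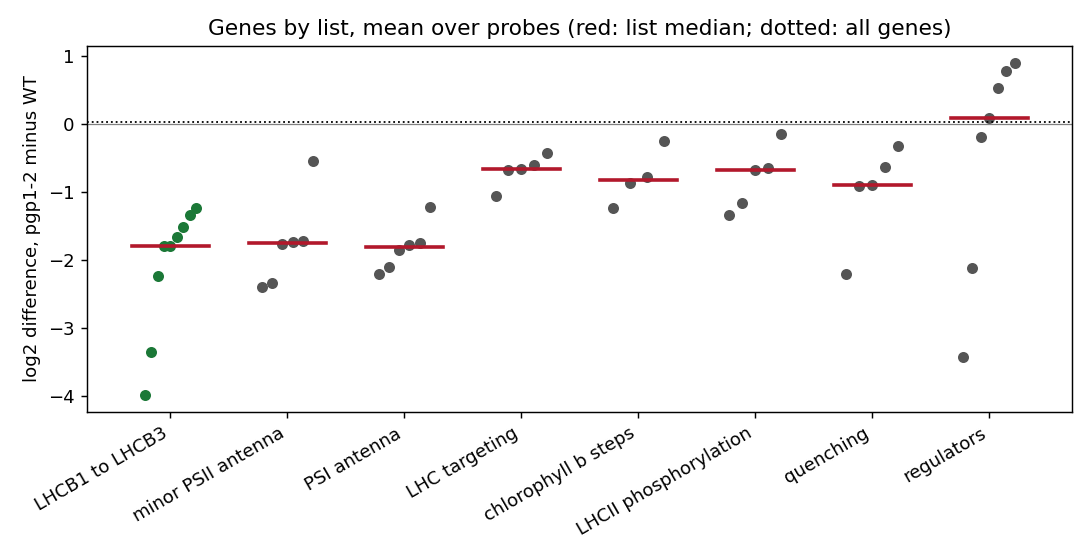
Log2 difference (y axis, *pgp1-2* minus WT, mean over the kept probes) of each gene in the 8 lists, with the list median as a red bar and the median of all genes as a dotted line. The 3 antenna lists have medians near -1.8, the 4 service lists lie between -0.66 and -0.90, and the regulators spread to both sides of 0.

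None of the 7 tested genes beside the LHCII genes was called lower, where 24.3% of all genes were. Of the 7, 4 were called higher, where 27.4% of all genes were, and with 7 genes these counts are a description. The protein-coding genes on either side of each member or run of members were taken from the RefSeq table, and 7 of these 10 had a kept probe. *CARB* and *NRPA2*, which flank the chromosome 1 trio, were called higher, by 0.37 and 0.96. *MRE11* and AT2G34450, beside *LHCB3* and *LHCB1.4*, were called higher by 0.34 and 0.26. All 4 were also higher under normexp, quantile, array-median and spike-in scaling. Under normexp the differences were 0.46 at *CARB* and 0.97 at *NRPA2*, but 0.061 at *MRE11* and 0.10 at AT2G34450. *RWA3*, AT3G27700 and *ATM2* differed by -0.11, 0.11 and -0.19 and were not called (limma adjusted p = 0.278, 0.300 and 0.268).

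The most similar profiles over the 6 arrays were sought among 21347 genes, well above background throughout, that were not mapped to a member locus. This count includes transcripts without a locus, and whether any of these is a member transcript was not tested. For the mean of the *LHCB1* genes the nearest was AT5G44260, at a root mean square distance of 0.105, with a difference of -2.04. For *LHCB2* and for *LHCB3* the nearest was a transcript named in the files as TA26725_3702, at 0.103 and 0.0616, which matched no locus. It had 2.3, 2.7 and 2.9 in *pgp1-2* and 5.3, 4.5 and 5.1 in the WT. The mean of the *LHCB3* probes was 2.4, 2.8 and 3.0 in *pgp1-2* and 5.3, 4.5 and 5.1 in the WT. Whether TA26725_3702 is itself an *LHCB3* transcript was not tested. DR281172, also without a locus, was among the 3 nearest for both LHCB1 (0.112) and LHCB3 (0.131), with a difference of -2.05. The remaining near profiles also carried no locus.

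Markers of tissues moved as well. All 4 leaf markers were called lower, where 24.3% of all genes were, with a median of -1.29 over gene means. *CA1*, for a carbonic anhydrase, had the largest fall, at -2.83. *RBCS1A* was called lower at -0.43 by its brightest probe, a difference that was 0.0018 relative to the spike-in probes and 0.023 under quantile normalization. Its mean difference over 13 probes in the main fit was larger, at -0.78. With spike-in scaling 1 of the 4 leaf markers, *CA1*, was called lower, or 3 with slide also a block. Of all probes, 17.3% and 58.5% were called in these fits. Summed on the linear scale, as multiples of the 75th percentile, the leaf markers lay at 222 to 282 on the mutant arrays and 445 to 500.1 on the WT arrays. The 5 kept of 8 root markers summed to 46.3 to 68.4 in *pgp1-2* and 19.3 to 20.6 in the WT, and *PYK10*, for a root beta-glucosidase, made up 96.8% to 97.9% of the sum in *pgp1-2* and 90.4% to 91.5% in the WT. Without *PYK10* the sum lay at 1.41 to 1.5 in *pgp1-2* and 1.73 to 1.9 in the WT. *PYK10* was called higher by 1.56. *COBL9* was called higher by 1.70 (limma adjusted p = 0.0422), but not under normexp (0.30), without the filter, with the replicate block, or when *pgp1-2* replicate 1 or 2 or WT replicate 1 was left out, and it was 1.1 without WT replicate 2. *CASP1* was called lower at -4.38, with 1 of the 3 mutant arrays well above background, and at -2.79 under normexp. *SHR* was called lower at -0.52, but not with spike-in scaling (-0.092). *SCR* was not called by its brightest probe, at -0.0092 (limma adjusted p = 0.934), but the mean over its 2 probes was -0.41. *EXPA7*, *IRT1* and *NRT2.1* were not kept. The 3 shoot meristem markers *STM*, *KNAT1* and *CLV3* were called higher, where 27.4% of all genes were, by 1.18 to 2.22. However, *CLV3*, with 1 of the 3 WT arrays well above background, was not called and had the other sign (-0.40) under normexp. Among the 3 epidermis markers *FDH* was called lower (-0.31, but 0.12 relative to the spike-in probes, and not called under normexp or quantile normalization, without the filter, or when any array other than *pgp1-2* replicate 2 was left out) and the others were not, and of 4 flower markers *PI* alone was kept and was not called. The part of tissue makeup in the fall of the LHCII genes was not tested.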

How the data were processed

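Per the file headers, the authors used version 10.7.1.1 of Agilent's Feature Extraction software on 1 scanned array per sample. The deposited values used are intensities on a linear scale, the processed signal (background-subtracted and detrended within the array) with its error, and raw median intensities, beside flags in no physical unit, per the file headers. No scaling between arrays is recorded there. Spots flagged as outliers and control spots were left out, and 197 of 43603 probes lost all spots on an array. Log2 of the processed signal minus each array's 75th percentile was analysed, with no pseudocount. Probes well above background on all 3 arrays of a group were kept. Accessions were matched to loci through the RefSeq TAIR10.1 table (34358 probes, 25433 loci), whose build differs from that in the headers, so no coordinates are given.

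Each probe was tested with limma 3.58.1 in R 4.3.3 (lmFit and eBayes, two-sided, Benjamini-Hochberg over 30435 probes, threshold 0.05). The fit relative to *LHCB3* used 30434 probes. The procedure was tested on simulated data. Genes are called by their brightest kept probe, and transcripts without a locus were counted as genes under their own names. Named genes are the 9 members, list genes with the largest or smallest difference or not called, flanking genes, and the nearest profiles. Other list genes named (*STN7*, *TAP38*, *GLK2*, *HY5*, *CCA1*, *PYK10*, *COBL9*, *KNAT1*) were chosen after their values were seen. Members and lists were chosen with earlier results of these data known. The number of arrays limits the precision. Alternatives are given at the end.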

Additional observations from a re-analysis of the deposited data

How the results depend on the processing

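All LHCII probes kept a lower signal in *pgp1-2* under each alternative run. Over all probes the count called was 15300. It was 8316 under normexp, which moved the median of all probes by -0.14. With spike-in scaling, which moved it by 0.43, the count was 5280 (17.3%), or 17816 (58.5%) once slide was also a block. Quantile normalization left 33 of the 35 LHCII probes called and 8 of the 9 genes. Spike-in scaling left 24 LHCII probes called and, by the brightest probe, 4 of the 9 genes, or 32 probes and 7 genes once slide was also a block; the cause was not tested. The median over the genes was -1.79. It was -1.36 in both fits with spike-in scaling, -1.48 under quantile normalization and -2.30 within slide 1. With the brightest probe per gene it was -1.44, or -0.78 under quantile normalization, and with the dimmest it was -2.25. The quantile medians by brightest probe were -0.84 for the minor and -1.09 for the photosystem I antenna genes. Leaving out 1 array gave medians from -1.95 to -1.60, 9 genes called each time, 12308 to 14374 probes called, and 11 to 15 probes that differed from *LHCB3*, against 14 of 31. With 1 probe per gene, 6 of 8 genes differed from *LHCB3*. Same-numbered arrays deviated together at correlations of 0.10, 0.14 and 0.054 across probes, so their numbers were not read as pairs, although 6 of the 6 arrays correlated best with their own number in the other group. With the replicate block 14383 probes were called, 9 of the 9 genes and 13 of the 31 relative to *LHCB3*; these blocked values are given because the groups share replicate numbers. The dimmest probe per gene and each probe's own variance were chosen after seeing the data. Under each setting, the mutant level of the dim *LHCB1.4* probes is limited by their signal over background.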
